A study of Mus musculus with 4 samples.

Results

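The calmodulin-dependent kinases and the phosphatase calcineurin were followed through the blood cells of mice whose ear skin had been treated with non-thermal plasma (NTP), an ionized gas that stays near body temperature. The set is a list of 9 genes, chosen with earlier results of these data known. It holds the kinase genes Camk1d, Camk2d, Camk2g, Camk4 and Camkk2, the catalytic calcineurin genes Ppp3ca, Ppp3cb and Ppp3cc, and the regulatory calcineurin gene Ppp3r1. All 9 are among the 15093 genes of the deposited table.

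In lymphocytes, engagement of the antigen receptor empties calcium stores and opens channels in the cell membrane, and the calcium that enters binds calmodulin. Calcium-loaded calmodulin activates kinases, among them CaMKII, which can phosphorylate itself, and the CaMKK, CaMKI and CaMKIV cascade, in which Camkk2 phosphorylates the other kinases. It also activates calcineurin, a heterodimer of a catalytic A subunit and the regulatory B subunit, which dephosphorylates NFAT transcription factors so that they enter the nucleus. Calcineurin is the target of the immunosuppressants cyclosporin and tacrolimus.

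All 4 animals were female wild-type C57BL/6 mice aged 3.2 ± 0.3 months, and all were anaesthetized with ketamine and xylazine. The 2 treated mice, Maus3_2 and Maus6, were exposed for 10 min on the left ear to NTP from an argon plasma jet. The 2 untreated mice were Maus2_2 and Maus4_2, which received anaesthesia only. Blood was drawn 120 min after NTP in treated mice and 120 min after anaesthesia began in untreated mice. The time since anaesthesia began thus differed between the groups and cannot be told apart from treatment. Mononuclear cells were separated on a density gradient, and 3' single-cell libraries were sequenced. In these, each captured RNA molecule carries a unique molecular identifier (UMI). The mouse was the unit of replication, and the authors' annotation of 5794 cells gave the cell types.

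The libraries held 993 to 1705 cells and 4653719 to 7093148 UMIs per mouse, of which 13104 to 18159 UMIs came from the 9 genes, and 4 cell barcodes occurred in more than 1 library. Levels are given in CPM, the usual unit of counts scaled to library size, of the sum over a mouse's cells of a type. The markers matched the labels of B cells and of both T cell types, and fitted the other labels in part or not at all. In annotated plasmablasts Jchain, which links secreted antibody, had 0 UMIs in all 4 mice, the 5 plasmablast markers summed to a mean of 216.1 CPM in them and 207.9 CPM in B cells, and the 4 B cell markers summed to 7147 CPM in them and 4156 CPM in B cells. In annotated NK cells, 73 in all, the T cell receptor gene Cd3d was found in 92.3 to 100% of the cells of each mouse and the NK receptor gene Ncr1 in 1 cell. The 6 NK markers summed to a mean of 699 CPM in them and 282 CPM in CD8+ T cells, and Nkg7, a gene of cytotoxic granules, was found in 94.7 to 100% of their cells in each mouse and in 67.9 to 73.2% of CD8+ T cells. Both labels are used below as the names of the authors' groups only.

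The study asked whether NTP on the skin reaches blood cells through miRNAs that were measured in the ear, so the seed matches of these miRNAs in the 9 genes are shown first. The mature sequences (RefSeq, GRCm38.p6) carry the seed, bases 2 to 8, in capitals, and no seed is shared between them.
miR-223-3p: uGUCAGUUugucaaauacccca
miR-451a: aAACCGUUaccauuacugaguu
miR-142a-5p: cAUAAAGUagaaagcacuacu
miR-144-3p: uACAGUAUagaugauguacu

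The annotated 3' untranslated region (UTR) of Camk1d, 5526 bases long, held a match to each of 2 of these seeds, 1 for miR-223-3p and 1 for miR-451a. The match for miR-223-3p lies at chr2:5297736-5297742 and that for miR-451a at chr2:5297506-5297512 (GRCm38, minus strand). The UTR of Camk2g held a match for miR-223-3p at chr14:20735709-20735715 (minus strand), and that of Camk2d a match for miR-144-3p at chr3:126845641-126845648 (plus strand). In the UTR of Ppp3r1 the match for miR-142a-5p lies at chr11:17198913-17198919 and that for miR-144-3p at chr11:17200338-17200345 (plus strand). The sequences below, shown because they are the places at which these genes could pair with the study's miRNAs, are in the direction of the transcript with the seed match in capitals.
Camk1d, miR-223-3p: gaggaatctaaAACTGACgggacctgtgg
Camk1d, miR-451a: gcagttttgccAACGGTTcccttcagctc
Camk2g, miR-223-3p: gtttgagatcgAACTGACtgcttgggtga
Camk2d, miR-144-3p: gaactgagaccATACTGTAcaaagcaacct
Ppp3r1, miR-142a-5p: acgagtctgtaACTTTATttatatctctg
Ppp3r1, miR-144-3p: tagagaacttcATACTGTAtgagtaagaaa

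Among 12512 genes with an annotated 3' UTR, 9.79% held a match for miR-223-3p, 2.17% for miR-451a, 16.2% for miR-142a-5p and 13.85% for miR-144-3p. No match to these 4 seeds was found in the UTRs of Camkk2, Ppp3ca, Ppp3cb and Ppp3cc (3502, 2502, 2120 and 219 bases long). Camk4 held a single match, for miR-144-3p. The percentages are over UTRs of all lengths, and matches were not scaled to length. The fifth miRNA of the study, miR-144-5p, had a match in 6.24% of genes and in no member. A match is a string of letters and says nothing of whether the miRNA acts there.

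Camk1d, a CaMKI gene whose kinase is switched on by calmodulin and by Camkk2, was the most evenly distributed of the abundant members. Its level was 1349 ± 102.7 CPM in B cells, 1394 ± 204 CPM in plasmablasts, 1428 ± 87.9 CPM in CD8+ T cells, 1526 ± 84.6 CPM in CD4+ T cells and 1752 ± 272 CPM in NK cells (mean ± SD, n = 4 mice, here and below). The ranges over mice of every pair of neighbours in this order overlapped. Within each mouse, however, the level was higher in CD4+ T cells and in NK cells than in B cells. The smallest log2 ratios of any mouse were 0.082 and 0.1. At least 1 Camk1d UMI was found in 94.1 to 100% of the cells of each type, and in 81.0 to 88.7% after each cell had been thinned to 1500 UMIs, which left out 46 shallower cells of the 5794.

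Camk4, which encodes CaMKIV, a kinase of the nucleus and cytoplasm known from T cells and neurons, divided the lymphocytes most sharply. It reached 467 ± 29.3 CPM in CD4+ T cells, 322 ± 49.1 CPM in CD8+ T cells and 293 ± 73.9 CPM in NK cells. In B cells 17 of 11147828 UMIs were Camk4, which is 1.53 CPM (exact Poisson interval 0.888 to 2.44, counting error only). The pooled level was 305-fold higher in CD4+ T cells than in B cells (190 to 523 from the same interval). In plasmablasts 2 UMIs were found, both in Maus4_2, and the other 3 mice had 0. CD4+ T cells, with a median depth of 4429 UMIs, carried a Camk4 UMI in 73.0% of cells, and B cells, with a median of 3364 UMIs, in 0.543%. The source of the 17 UMIs in B cells was not tested. The ranges of CD4+ and CD8+ T cells did not overlap (441.5 to 506 CPM and 270 to 369 CPM).

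Camk2d, the delta gene of CaMKII, had the opposite pattern. It reached 408 ± 29.0 CPM in B cells and 398 ± 51.3 CPM in plasmablasts, against 131 ± 10.3 CPM in CD4+ T cells, 109 ± 14.6 CPM in CD8+ T cells and 93.3 ± 19.6 CPM in NK cells. The level in B cells was 3.12-fold that in CD4+ T cells, and the lowest mouse of either B lineage group, at 341 CPM, stood above the highest mouse of any other type, at 141 CPM. Camk2g, the gamma gene of the same kinase, was low everywhere, with 9.37 ± 0.358 CPM in B cells, 15.7 ± 1.12 CPM in CD4+ T cells and 18.5 ± 2.11 CPM in CD8+ T cells. Of the UMIs of these CaMKII genes, Camk2g made up 2.25 ± 0.133% in B cells, 10.7 ± 0.935% in CD4+ T cells and 14.7 ± 2.40% in CD8+ T cells.

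Camkk2, the kinase that phosphorylates CaMKI, CaMKIV and AMPK, was measured at 41.3 ± 6.27 CPM in B cells and 47.4 ± 14.7 CPM in plasmablasts. It stood at 16.3 ± 5.17 CPM in CD4+ T cells and 15.6 ± 5.35 CPM in CD8+ T cells. In every mouse its level was higher in B cells than in either T cell type. In NK cells it rested on 7 UMIs, and 2 mice had 0.

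Ppp3ca, the alpha gene of the catalytic subunit, reached 761 ± 58.9 CPM in B cells and 756 ± 67.5 CPM in plasmablasts. Its levels were 129 ± 6.78 CPM in CD4+ T cells, 140 ± 25.3 CPM in CD8+ T cells and 132 ± 36.2 CPM in NK cells, and the 5.92-fold ratio of B cells to CD4+ T cells varied little between mice (SD 0.0543 of the log2 ratio). Ppp3cb, the beta gene, was nearly flat, from 78.0 ± 13.0 CPM in NK cells to 97.6 ± 9.94 CPM in plasmablasts, with overlapping neighbours throughout. Ppp3cc, the gamma gene, known for its high level in testis, was measured at 155 ± 10.5 CPM in B cells, 130 ± 20.9 CPM in plasmablasts, 65.3 ± 11.8 CPM in CD8+ T cells and 53.2 ± 7.23 CPM in CD4+ T cells. Ppp3r1, which encodes the calcium-binding B subunit that pairs with each of the catalytic subunits, did not follow Ppp3ca. It was measured at 30.0 ± 3.72 CPM in B cells and 32.4 ± 8.16 CPM in CD4+ T cells, with overlapping ranges, and lowest at 16.7 ± 4.66 CPM in NK cells, on 8 UMIs. Ppp3r1 overlaps Wdr92 on the same strand, so its UMIs could be split between these genes.

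**Figure D1:**
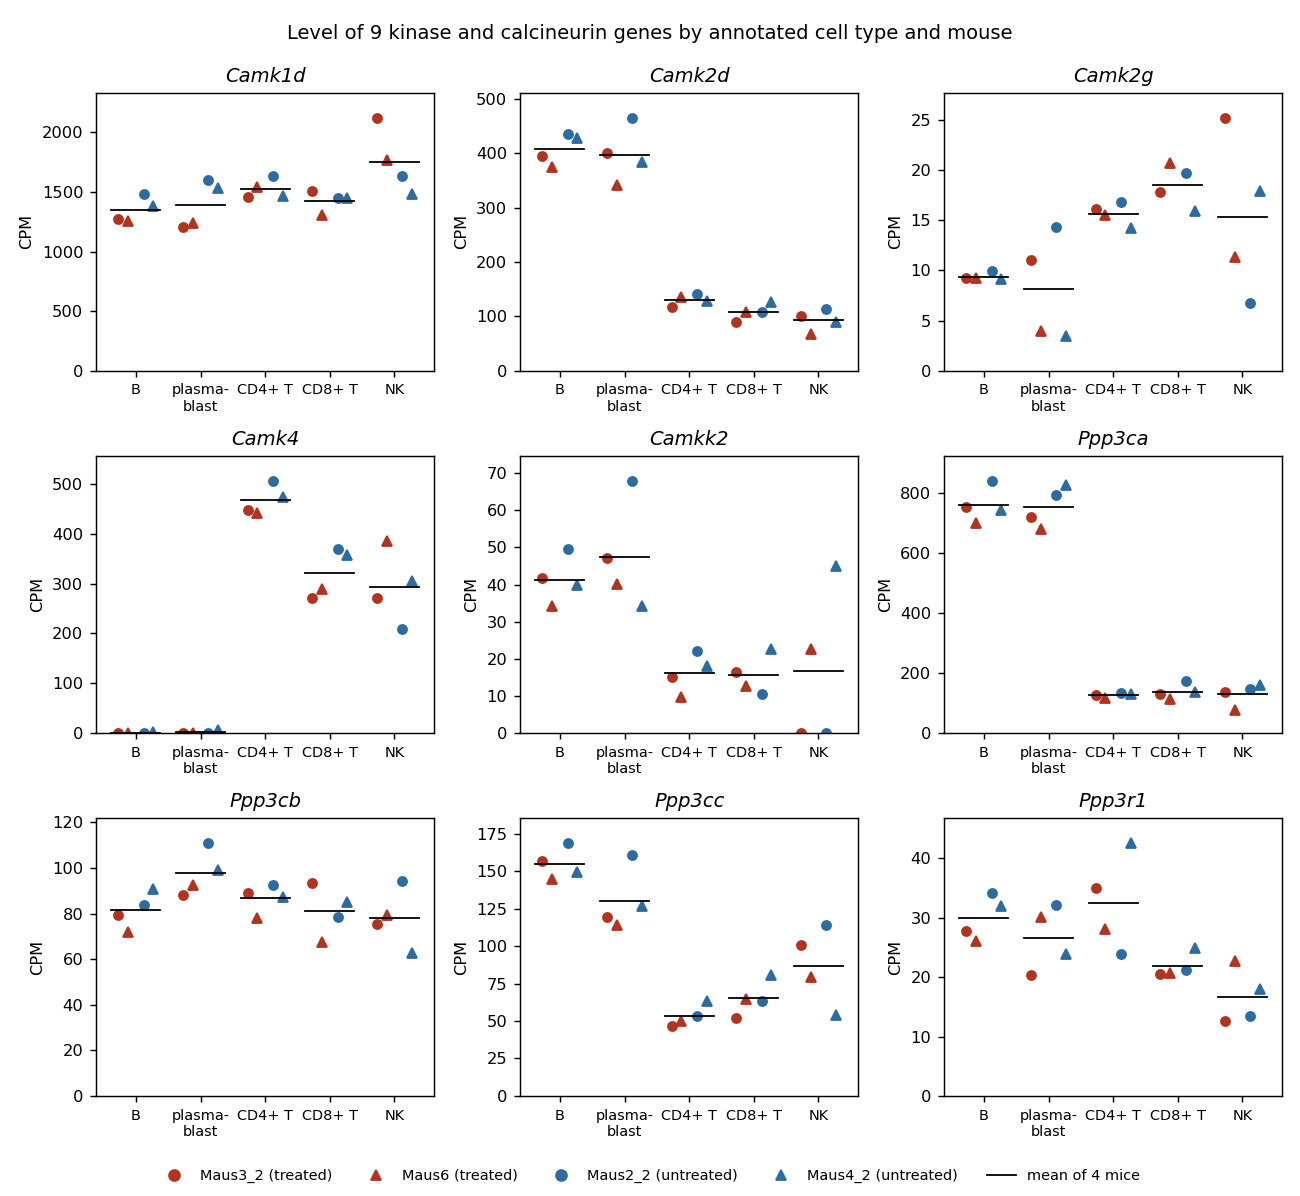
Level in CPM (vertical axis) of each of the 9 genes in each annotated cell type (horizontal axis), 1 point per mouse, treated in red and untreated in blue, with a line at the mean of 4 mice. Camk2d, Camkk2, Ppp3ca and Ppp3cc are highest in B cells and plasmablasts, Camk4 is near 0 in both, and Camk1d and Ppp3cb are close to level across types.

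The make-up of the catalytic calcineurin transcripts therefore differed between the lineages. Ppp3ca gave 76.3 ± 0.571% of the UMIs of the 3 catalytic genes in B cells and 76.9 ± 1.74% in plasmablasts, and 47.9 ± 0.951% in CD4+ T cells and 48.6 ± 4.53% in CD8+ T cells. Ppp3cb gave 8.17 ± 0.720% in B cells and 32.3 ± 1.25% in CD4+ T cells, and Ppp3cc 15.6 ± 0.301% and 19.8 ± 2.10% in the same types. The lowest Ppp3ca share of any mouse in the B lineage groups was 74.5%, and the highest in CD4+ or CD8+ T cells was 55.2%. The shares count captured 3' ends, so a share compares cell types for the same gene and not the amounts of the 3 proteins. These differences between cell types are descriptions without a test, because the clusters behind the annotation were made from the same expression values.

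**Figure D2:**
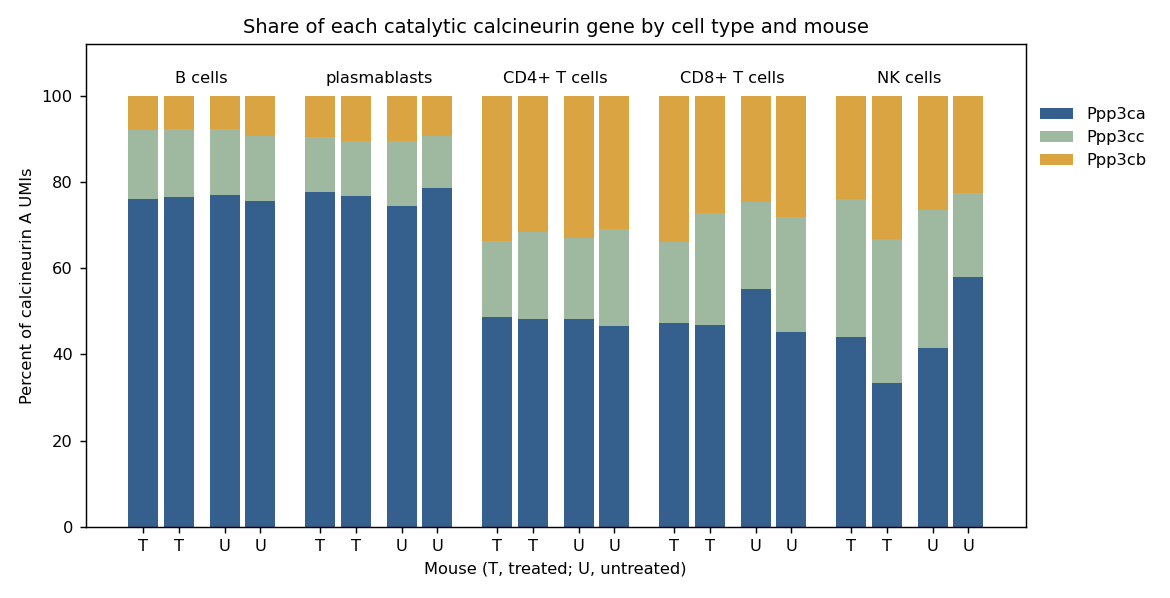
Percent of the UMIs of the catalytic calcineurin genes that came from Ppp3ca, Ppp3cc and Ppp3cb (stacked bars adding to 100), for each mouse (T, treated; U, untreated) and annotated cell type. In B cells and plasmablasts Ppp3ca takes 74.5 to 78.6% in every mouse, and in CD4+ T cells 46.6 to 48.8%.

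The order of cell types depended for a few genes on the scale, since cells of the T lineage carried more UMIs (median 5556 in CD8+ T cells and 3364 in B cells). In UMIs per 100 cells, Ppp3cc in NK cells and Ppp3r1 in CD8+ T cells and NK cells lay above B cells, whereas in CPM they lay below, and so did Ppp3cb in both, whose CPM differed from that of B cells by less than the spread between mice. For Camk2d, Camkk2, Ppp3ca and Camk4 the direction relative to B cells was the same on both scales in each T cell type.

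Across the 16 sums of 4 mice by 4 cell types (NK cells left out), the log2 levels of Ppp3ca, Camk2d, Ppp3cc and Camkk2 ran together, with Pearson r between 0.897 and 0.978, and each ran against Camk4, with r between -0.972 and -0.912. These values describe mainly the divide between B lineage and T lineage cells, and sums of the same mouse and of the same type are not independent. Among 5767 genes with a mean of at least 20 CPM, the levels most like those of Ppp3ca were Snx29 (r = 0.997), Nsf (0.995) and Bcl11a (0.994), the last a transcription factor needed for B cell development. Those most like Camk2d were Snx5 (0.994), Mef2c and Snx2 (0.989 each), and Mef2c, a transcription factor that CaM kinases and calcineurin can activate, averaged 2418 CPM in B cells and 4.38 CPM in CD4+ T cells. Those most like Ppp3cc were H2-DMa (0.975), Fchsd2 and Smap2 (0.971 each), and those most like Camkk2 were Rab14 (0.946), Slc38a1 and Gmeb2 (0.945 each). Themis, a T cell signalling gene, Nsg2 and Spred2 were most like Camk4 (0.993, 0.99 and 0.989). For the flat genes the likeness was weaker, with a highest r of 0.869 for Camk1d (Mia2), 0.858 for Ppp3cb (Nr2c2) and 0.812 for Ppp3r1 (Rxylt1), and it was 0.927 for Camk2g (Gramd1a).

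Camk2d and Camkk2 belong to the group that ran together. Their promoters, 300 bases around the start, are shown as those of members whose levels moved together (RefSeq, GRCm38.p6, read for 5 of the 9 members). The promoter of Camk2d is chr3:126596701-126597000 on the plus strand, with 70.3% G and C, and that of Camkk2 is chr5:122779361-122779660 on the minus strand, with 73.3% G and C. Capitals mark matches on either strand to the NFAT core GGAAA or the CCAAT box.
Camk2d: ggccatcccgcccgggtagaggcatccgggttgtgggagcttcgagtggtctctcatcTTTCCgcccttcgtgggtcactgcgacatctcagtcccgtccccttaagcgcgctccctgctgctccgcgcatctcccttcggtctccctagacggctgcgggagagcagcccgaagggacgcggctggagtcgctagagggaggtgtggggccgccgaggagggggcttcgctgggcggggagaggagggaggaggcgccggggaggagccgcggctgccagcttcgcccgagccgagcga
Camkk2: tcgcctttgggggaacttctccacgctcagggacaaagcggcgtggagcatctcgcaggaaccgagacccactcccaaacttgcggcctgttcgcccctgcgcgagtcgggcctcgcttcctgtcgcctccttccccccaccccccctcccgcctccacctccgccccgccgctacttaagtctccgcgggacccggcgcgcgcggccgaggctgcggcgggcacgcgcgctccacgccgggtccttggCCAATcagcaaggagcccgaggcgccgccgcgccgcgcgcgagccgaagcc

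Camk2d held 1 NFAT core and no CCAAT box, and Camkk2 held 1 CCAAT box and no NFAT core. Of 32851 promoters of the same length, 61.3% held an NFAT core and 37.4% a CCAAT box. Neither held the cAMP response element TGACGTCA, which was present in 1.79% of promoters, or the PU.1 core GAGGAA, present in 28.3%, or the short element TGACG, present in 20.8%. The Camk2d promoter held 3 and the Camkk2 promoter 1 match to the GC box GGGCGG, found in 35.7% of promoters. Of the motifs searched, the GC box was the one found in both.

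Within the B cells, the authors' clusters differed in the members that mark the lineage. Ppp3ca was measured at 456 ± 27.9 CPM in cluster 1, 736 ± 7.34 CPM in cluster 0 and 1002 ± 45.4 CPM in cluster 2, and the ranges over mice of the 3 clusters did not overlap. The same order without overlap was found for Camk2d, with 266 ± 14.1, 389 ± 17.9 and 505 ± 24.9 CPM in clusters 1, 0 and 2, and for Ppp3cc, with 99.3 ± 14.6, 152 ± 13.3 and 209 ± 23.3 CPM. Camk1d was measured at 1268 ± 155 CPM in cluster 1 and 1464 ± 72.9 CPM in cluster 2, in overlapping ranges (1151 to 1479 and 1355 to 1504 CPM). Without mitochondrial and ribosomal protein genes in the total, its ranges were 1872 to 2412 CPM in cluster 1 and 1818 to 2016 CPM in cluster 2. The clusters also differed in depth, from a median of 2683 UMIs per cell in cluster 1 to 4244 in cluster 2. After thinning to 1500 UMIs, a Ppp3ca UMI was found in 44.5% of the cells of cluster 1, 62.6% of cluster 0 and 70.8% of cluster 2, so the order held at equal depth. Cluster 10, with 80 cells, had 492 ± 107 CPM of Camk2d and 591 ± 141 CPM of Ppp3ca.

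Within the CD4+ T cells, Camk4 was measured at 310 ± 19.6 CPM in cluster 3, 419 ± 78.8 CPM in cluster 7, 647 ± 24.9 CPM in cluster 5 and 676 ± 34.1 CPM in cluster 8. The highest mouse of clusters 3 and 7 had 520 CPM and the lowest of clusters 5 and 8 had 614 CPM. Camk2d was likewise higher in clusters 5 and 8 (163 ± 30.8 and 212 ± 40.6 CPM) than in clusters 3 and 7 (97.7 ± 7.88 CPM and 70.3 to 126 CPM over mice). The gap was narrow, 125.6 CPM on 31 UMIs in cluster 7 (Maus6) against 129.4 CPM on 84 UMIs in cluster 5 (Maus3_2). Without mitochondrial and ribosomal protein genes in the total, these values were 216.5 and 191.0 CPM, so clusters 7 and 5 overlapped. Median depths were 4124 UMIs per cell in cluster 3, 4316 in cluster 7, 4946 in cluster 5 and 4434 in cluster 8, and the thinned share of cells with a Camk4 UMI was 34.2%, 41.0%, 56.7% and 56.2% in these clusters. Both annotated plasmablast clusters had Ppp3ca levels of the B lineage, 809 ± 114 CPM in cluster 6 and 625 ± 84.3 CPM in cluster 9.

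**Figure D3:**
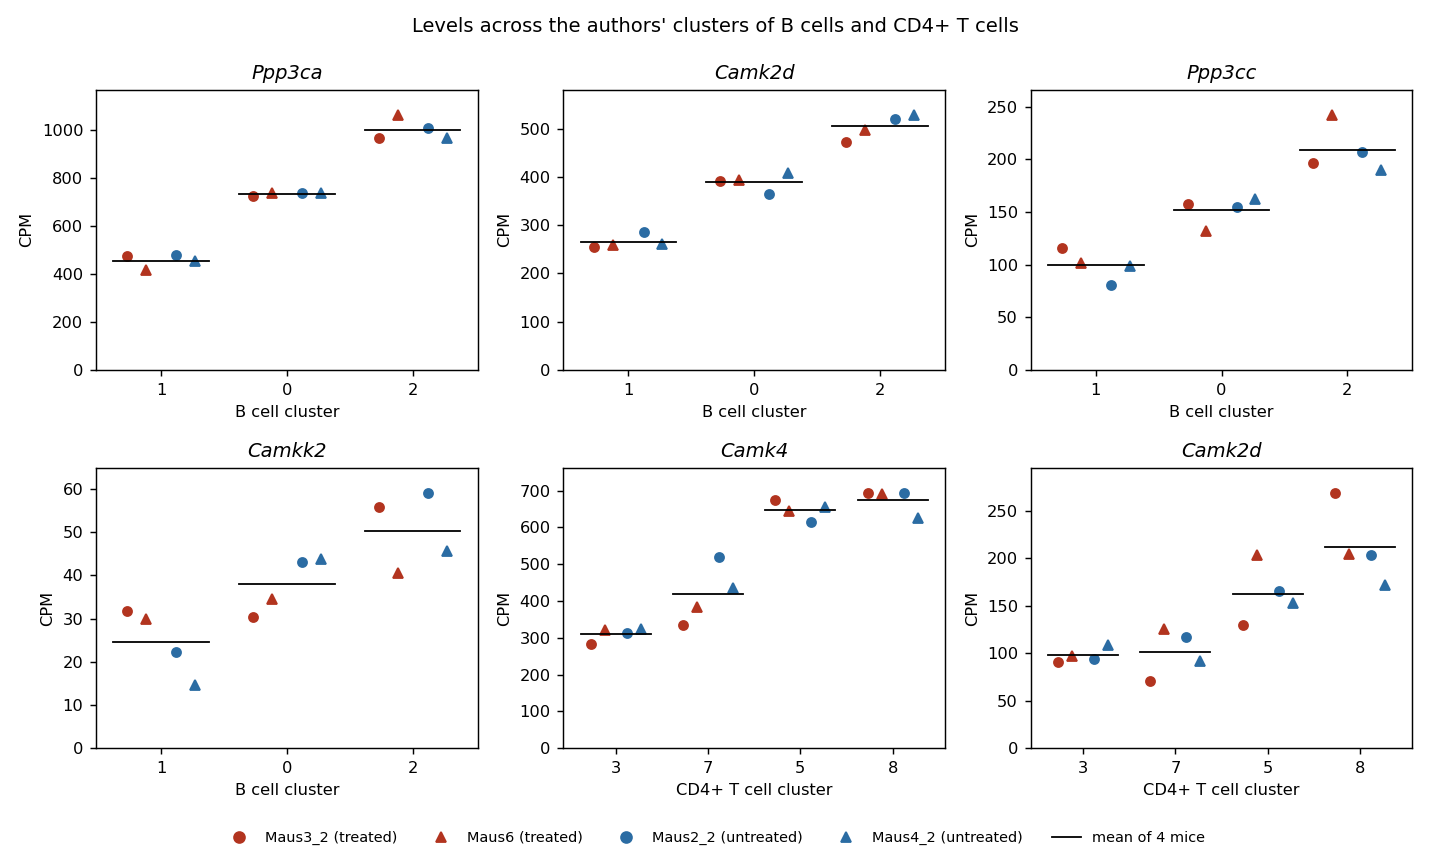
Level in CPM (vertical axis) across the authors' clusters of B cells (Ppp3ca, Camk2d, Ppp3cc and Camkk2) and of CD4+ T cells (Camk4 and Camk2d), 1 point per mouse, treated in red and untreated in blue, with a line at the mean of 4 mice. Ppp3ca averages 456, 736 and 1002 CPM in B cell clusters 1, 0 and 2, and Camk4 averages 310 CPM in CD4+ cluster 3 and 676 CPM in cluster 8.

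Treated mice were then set against untreated mice within each cell type by edgeR's quasi-likelihood test on sums per mouse, with Benjamini-Hochberg adjustment over all genes tested. No member passed the adjusted threshold of 0.05 in any type. The test took 8 members in B cells, 7 in plasmablasts and 9 in each T cell type, because Camk4 in B cells and plasmablasts and Camk2g in plasmablasts did not pass the filter on low counts. Of all genes, 0% passed in B cells (0 of 9903), 0.0186% in plasmablasts (1 of 5372), 0% in CD4+ T cells (0 of 8680) and 0.0294% in CD8+ T cells (2 of 6798). An unadjusted p under 0.05 was reached by 0 members of 460 such genes in B cells, 1 of 365 in plasmablasts, 0 of 416 in CD4+ and 1 of 574 in CD8+ T cells. DESeq2 and limma-voom also called 0 members.

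Most fold changes of the members lay below 0. All 8 tested members in B cells and all 7 in plasmablasts had a negative log2 fold change, as did 7 of 9 in CD4+ and 6 of 9 in CD8+ T cells. Their medians were -0.14 in B cells, -0.18 in plasmablasts, -0.05 in CD4+ and -0.13 in CD8+ T cells, and the medians over all genes tested lay between 0.003 and 0.007. Both treated mice lay below both untreated mice for 4 of 8 members in B cells (20.2% of all genes), 4 of 7 in plasmablasts (20.1%), 4 of 9 in CD4+ (21.9%) and 3 of 9 in CD8+ T cells (26.1%). Both lay above for 0 members in each type, and for 14.5% of all genes in B cells, 16.6% in plasmablasts, 13.3% in CD4+ and 12.6% in CD8+ T cells. In the fits by cluster, described below, the direction varied. Negative values were found for 7 of 7, 4 of 7 and 5 of 8 tested members in B cell clusters 0, 1 and 2. They were found for 8 of 9, 3 of 8 and 1 of 5 in CD4+ clusters 3, 5 and 8. They were found for 6 of 9 in CD8+ cluster 4, and 6 of 6 and 3 of 4 in plasmablast clusters 6 and 9. Medians over all genes of a cluster lay between -0.007 and 0.016. With these members few and chosen, no test was made of the list.

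Long genes as a class had lower values in treated mice, and the members include very long genes. Camk1d (chr2:5293457-5714515, GRCm38) spans 421059 bases, Ppp3ca (chr3:136670124-136937727) 267604, Camk4 256298 and Camk2d (chr3:126596302-126846326) 250025, each above the 96th percentile of measured genes, and the other members span 41113 to 71607 bases, between the 68.9th and 81.7th percentile. The rank correlation across genes between span and log2 fold change was -0.29 in B cells, -0.29 in plasmablasts, -0.27 in CD4+ and -0.34 in CD8+ T cells (genes are not independent replicates). Among the longest 20% of genes the median log2 fold change was -0.09, -0.12, -0.09 and -0.15 in the same order. Within single clusters, on fewer counts, the rank correlation was -0.077, -0.151 and -0.105 in B cell clusters 0, 1 and 2. It was -0.223, -0.102 and -0.111 in CD4+ clusters 3, 5 and 8, -0.323 in CD8+ cluster 4, and -0.349 and -0.156 in plasmablast clusters 6 and 9. With an offset for gene length, Ppp3ca stood at 0.02 in B cells and 0.06 in CD4+ T cells, against -0.09 and -0.05 without it. The offset was fitted from these same mice, as each mouse's own trend of level against gene length. It takes out any length trend between the groups, so values of long genes rise by construction where that trend is negative. The part of gene length in the members' values was not tested.

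Among the fits by cell type, Camk1d had the smallest unadjusted p of any member, in plasmablasts. In B cells it had 1274 and 1261 CPM in treated mice, against 1480 and 1382 CPM in untreated mice (log2 fold change -0.14, SE 0.0913, edgeR adjusted p = 0.934). In plasmablasts it had 1203 and 1236 CPM in treated mice, against 1605 and 1530 CPM in untreated mice (-0.33, SE 0.134, unadjusted p = 0.0200, edgeR adjusted p = 0.710). Treated and untreated mice did not overlap in either type. In CD4+ T cells the groups overlapped, with 1457 and 1546 CPM in treated mice and 1637 and 1463 CPM in untreated mice, as they did in CD8+ T cells, with 1511 and 1304 CPM in treated mice and 1451 and 1448 CPM in untreated mice. With the offset for gene length the log2 fold change was -0.02 in B cells, -0.14 in plasmablasts, 0.14 in CD4+ and 0.24 in CD8+ T cells. Hemoglobin and other red cell markers (5 genes) summed to 113 and 32.1 CPM in the plasmablasts of the treated mice, against 3714 and 13.7 CPM in those of the untreated Maus2_2 and Maus4_2, and without Maus2_2 the fold change was -0.27.

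The Camk1d effect in B cells minus that in CD4+ T cells came to -0.14 on the log2 scale (SE 0.0775, unadjusted p = 0.0768, edgeR adjusted p = 1). No member passed in this comparison, in which 0.00986% (1 of 10143) of genes did, nor between CD8+ and CD4+ T cells, in which 0.0114% (1 of 8735) did. An unadjusted p under 0.05 was reached by 395 and 426 genes in these comparisons and by 0 members in either, and without the mouse as a block edgeR called 0 genes. A treatment effect of Camk1d particular to B cells was therefore not shown.

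Camk4 in T cells came next. In CD8+ T cells it had 270 and 290 CPM in treated mice, against 369 and 358 CPM in untreated mice (-0.28, SE 0.135, unadjusted p = 0.0474, edgeR adjusted p = 0.591). In CD4+ T cells it had 448 and 442 CPM in treated mice, against 506 and 474 CPM in untreated mice (-0.09, SE 0.0881, edgeR adjusted p = 0.925). The mice of the groups did not overlap in either type, and the 2 effects differed by -0.19 (SE 0.130, edgeR adjusted p = 0.970). With the offset for gene length the values were -0.11 in CD8+ T cells and 0.02 in CD4+ T cells.

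**Figure D4:**
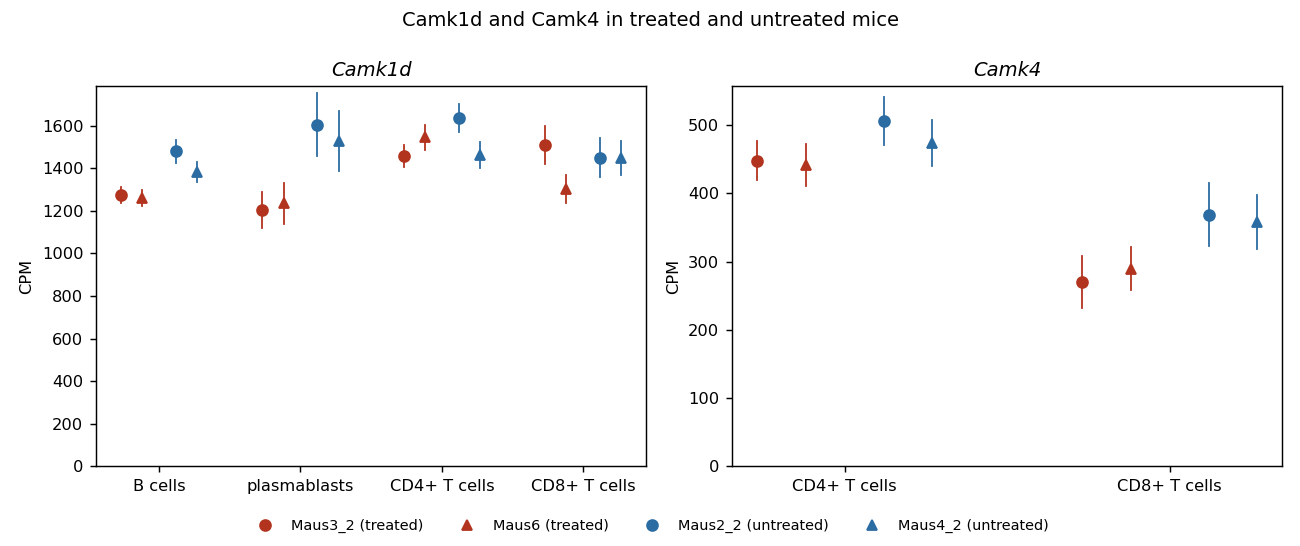
Level in CPM (vertical axis) of Camk1d in 4 cell types and of Camk4 in T cells, 1 point per mouse, treated in red left of untreated in blue, with bars for the 95% counting error of the sum. Camk1d in plasmablasts lies at 1203 and 1236 CPM in treated mice and 1605 and 1530 CPM in untreated mice, and its groups overlap in both T cell types.

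Camkk2 had the largest fold change of any member in the fits by cell type, in CD4+ T cells, on 111 UMIs. It was measured at 15.2 and 9.75 CPM in treated mice, against 22.0 and 18.1 CPM in untreated mice (-0.61, SE 0.303, edgeR adjusted p = 0.903). In B cells its groups overlapped, with 41.7 and 34.4 CPM in treated mice and 49.5 and 39.8 CPM in untreated mice (-0.19, SE 0.168, edgeR adjusted p = 0.934), and the value was -0.038 without Maus2_2 and -0.34 without Maus4_2. Camk2d in B cells had 395 and 374 CPM in treated mice, against 436 and 429 CPM in untreated mice (-0.13, SE 0.0955, edgeR adjusted p = 0.934), without overlap.

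Among the calcineurin genes, Ppp3ca in B cells had 755 and 702 CPM in treated mice and 842 and 744 CPM in untreated mice, in overlapping ranges (-0.09, SE 0.0977, edgeR adjusted p = 0.950). The value was -0.002 without the untreated Maus2_2 and -0.17 without the untreated Maus4_2. In plasmablasts it had 720 and 680 CPM in treated mice, against 793 and 828 CPM in untreated mice (-0.18, SE 0.148, edgeR adjusted p = 0.845). Ppp3cb in B cells had 79.3 and 71.8 CPM in treated mice, against 83.7 and 90.8 CPM in untreated mice (-0.18, SE 0.127, edgeR adjusted p = 0.934). Ppp3r1 in B cells had 27.8 and 26.1 CPM in treated mice, against 34.2 and 31.9 CPM in untreated mice (-0.26, SE 0.178, edgeR adjusted p = 0.934). The Ppp3ca share of catalytic UMIs in B cells was 76.1 and 76.4% in treated mice and 76.9 and 75.6% in untreated mice, in overlapping ranges.

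**Figure D5:**
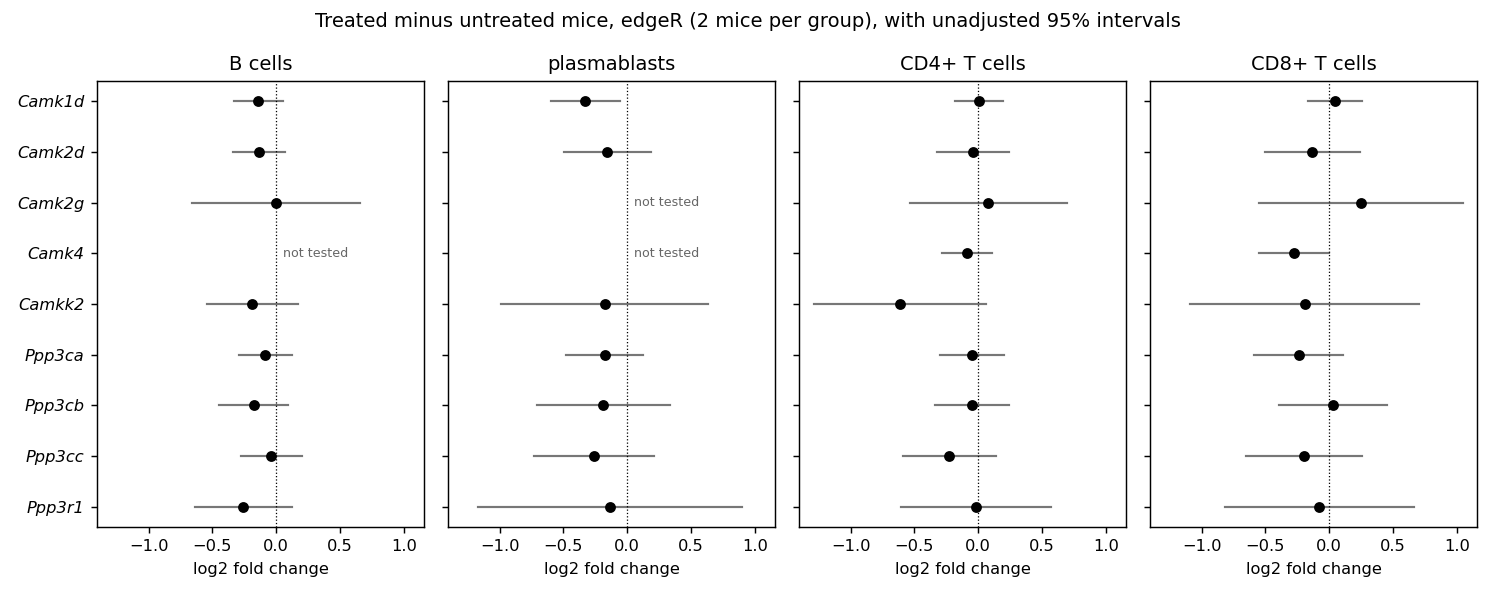
Log2 fold change of treated over untreated mice (horizontal axis, points) with unadjusted 95% intervals from edgeR (lines) for each of the 9 genes (rows) in 4 annotated cell types, with 2 mice per group. All tested members lie below 0 in B cells and plasmablasts, and the intervals of Camk1d in plasmablasts and Camk4 in CD8+ T cells end below 0 before adjustment.

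The 95% interval for Ppp3ca in B cells ran from -0.29 to 0.12 and that for Camk2d from -0.34 to 0.07, whereas for Camkk2 in CD8+ T cells it ran from -1.09 to 0.71. The intervals of Ppp3ca and Camk2d in B cells thus stopped short of a 1.5-fold change in either direction. On simulated counts with the depth of these sums, 68% of genes changed 2-fold and 33% of those changed 1.5-fold were called in B cells. In plasmablasts 33% and 11% were called. The changed genes were drawn from all genes that passed the filter, with 1 common spread, so these shares are averages and not values for the members. Nearly all of the member values above are smaller than 1.5-fold. With 2 mice in each group the smallest p of an exact permutation test is 0.33.

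Clusters were tested in the same way where every mouse had at least 20 cells, which left out clusters 7, 10 and 11. No member passed in any of the 9 clusters tested. Of all genes, 0.0391%, 0.0306% and 0.0125% passed in B cell clusters 0, 1 and 2, 0.0222% and 0.0756% in plasmablast clusters 6 and 9, and 0% in the T cell clusters 3, 4, 5 and 8, where 329, 555, 264 and 106 genes had an unadjusted p under 0.05. The smallest p of any member was that of Camkk2 in cluster 3, of CD4+ T cells, with 9.27 and 8.50 CPM in treated mice, against 25.7 and 18.9 CPM in untreated mice (-1.27, SE 0.464, unadjusted p = 0.0113, edgeR adjusted p = 0.948), on 10 and 8 UMIs in treated mice and 15 and 14 UMIs in untreated mice. In cluster 1, of B cells, Camkk2 was on the other side, at a mean of 30.9 CPM in treated mice, against 18.5 CPM in untreated mice (0.82, unadjusted p = 0.0472, edgeR adjusted p = 0.994), without overlap. Camk1d had 1151 and 1151 CPM in cluster 1 in treated mice, against 1479 and 1292 CPM in untreated mice (-0.24, unadjusted p = 0.0296). In cluster 9 it had 1279 and 1275 CPM in treated mice, against 1706 and 1683 CPM in untreated mice (-0.42, unadjusted p = 0.0224). In cluster 8, of CD4+ T cells, it had 1455 and 1757 CPM in treated mice, against 1396 and 1415 CPM in untreated mice (0.20, unadjusted p = 0.304). In cluster 0 Ppp3ca had 725 and 738 CPM in treated mice and 740.0 and 739.8 CPM in untreated mice (-0.04, unadjusted p = 0.713).

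The mix of clusters also differed between the groups. Cluster 1, the lowest in Ppp3ca and Camk2d, held 32.4 and 38.4% of the B cells of treated mice, against 22.7 and 29.1% in untreated mice. Cluster 2, the highest, held 34.2 and 19.5% in treated mice and 47.0 and 30.7% in untreated mice, in overlapping ranges. Cluster 3 held 54.7 and 57.1% of the CD4+ T cells of treated mice, against 40.2 and 52.0% in untreated mice. Of the plasmablasts, cluster 6 held 77.16 and 73.94% in treated mice, against 64.79 and 64.65% in untreated mice. Cluster 9 held 17.28 and 20.42% of them in treated mice, against 30.99 and 30.3% in untreated mice. With cluster shares held equal, the log2 fold change of Camk1d in B cells was -0.17, and those of Camkk2 and Ppp3cc in B cells were 0.025 and 0.07, against -0.19 and -0.04 for all B cells. Ppp3ca stood at -0.018 with equal shares, against -0.09 for all B cells, Camk2d at -0.06, against -0.13, and Camk2g at -0.27, against -0.005. The values with equal shares are means of log2 CPM ratios over clusters, weighted by cells, without the TMM scaling of edgeR. The values for all B cells carry that scaling, so they differ in scaling too and not only in cluster shares. Camk2g rested on 4 to 20 UMIs per mouse in clusters 0, 1 and 2. None of the values with equal shares carries a test.

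Around the members, a list of 94 genes of the calcium pathway was read from the same fits. None of its tested genes passed in any type. The log2 fold change was negative for 40 of 67 tested genes in B cells (59.7%, and 49.2% of all genes), 29 of 48 in plasmablasts (60.4% and 49.6%), 34 of 60 in CD4+ (56.7% and 48.9%) and 29 of 52 in CD8+ T cells (55.8% and 49.4%). In the same order of types, 10 of 15, 9 of 12, 10 of 12 and 8 of 12 genes for calcium entry and store release were negative, as were 7 of 10, 7 of 8, 8 of 10 and 5 of 9 NFAT factors and their kinases. Negative values were found for 10 of 15, 6 of 10, 10 of 14 and 8 of 12 CaM kinase substrates, 5 of 8, 2 of 4, 4 of 7 and 3 of 4 target genes of NFAT and activity, and 2 of 5, 2 of 3, 1 of 4 and 1 of 2 other CaM kinases and relatives. Of the calcineurin partners and inhibitors, 5 of 8, 2 of 5, 0 of 7 and 4 of 7 were negative, and of the calmodulin genes and other calcium binders, 1 of 6, 1 of 6, 1 of 6 and 0 of 6.

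Single genes named here are a part of those with the smallest unadjusted p in each direction and type, as means over mice. None passed the adjusted threshold. Nfkbia, which encodes an inhibitor of NF-kB that NF-kB itself induces, had 557 CPM in treated mice against 454 CPM in untreated mice in CD4+ T cells (0.35, edgeR adjusted p = 0.903). In CD8+ T cells it had 268 CPM in treated mice against 194.5 CPM in untreated mice (0.56, edgeR adjusted p = 0.348). In plasmablasts Nfkbia had 369 CPM in treated mice against 289 CPM in untreated mice (0.39, edgeR adjusted p = 0.710). Cd69, an early activation marker, had 107.5 CPM in treated mice against 76.9 CPM in untreated mice in CD4+ T cells (0.54, edgeR adjusted p = 0.903).

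Itpkb, which converts the calcium-releasing messenger IP3 to IP4, lay the other way, with 185.5 CPM in treated mice against 252 CPM in untreated mice in CD4+ T cells (-0.39, edgeR adjusted p = 0.903) and 137.5 CPM against 210.0 CPM in CD8+ T cells (-0.54, edgeR adjusted p = 0.491). Stim1, the calcium sensor of the stores, had 133 CPM in treated mice against 182 CPM in untreated mice in CD4+ T cells (-0.39, edgeR adjusted p = 0.903). Cd40lg, an NFAT target that gives help to B cells, had 65.1 CPM in treated mice against 88.9 CPM in untreated mice there (-0.39, edgeR adjusted p = 0.903).

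In B cells S100a10 had 286 CPM in treated mice against 236 CPM in untreated mice (0.31), and Crtc1, a CREB coactivator that calcineurin dephosphorylates, had 9.84 CPM against 5.08 CPM (1.01). Hdac7, a histone deacetylase that CaM kinases can phosphorylate, had 44.1 CPM in treated mice against 58.2 CPM in untreated mice (-0.38), and Nfatc3, an NFAT factor, had 352 CPM against 425.5 CPM (-0.24). All of these had an edgeR adjusted p of 0.934. S100a10 was higher in treated mice in CD8+ T cells too, with 293 CPM against 240.5 CPM (0.37, edgeR adjusted p = 0.545). In plasmablasts S100a10 had 243 CPM in treated mice against 194 CPM in untreated mice (0.37, edgeR adjusted p = 0.745). In plasmablasts Nfat5 had 106.5 CPM in treated mice against 164.5 CPM in untreated mice (-0.58, edgeR adjusted p = 0.710), and Mef2c had 1495 CPM against 1912 CPM (-0.32, edgeR adjusted p = 0.710). The cyclophilin gene Ppia had 1183 CPM in treated mice against 986 CPM in untreated mice (0.30, edgeR adjusted p = 0.724).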

How the data were processed

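Peripheral blood mononuclear cells of 2 treated and 2 untreated mice were analysed. The authors deposited whole-number UMI counts per gene and cell, with a table of UMI and gene counts, the percent of mitochondrial UMIs, cluster and annotated cell type per cell. Cell Ranger 7.1.0 and Seurat 4.3.0 are listed in the notes on processing by the submitters, with the genome mm10. Per the study's methods, ambient RNA was corrected with SoupX and doublets were removed with DoubletFinder before annotation. The sources used here do not say whether the deposited counts carry the SoupX correction. No doublet caller was run again.

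Counts were summed per mouse and annotated type or cluster (at least 20 cells in every mouse for a test). Treatment was fitted with edgeR 4.0.16 in R 4.3.3 (TMM, filterByExpr, quasi-likelihood, two-sided, Benjamini-Hochberg, threshold 0.05), and differences between types with the mouse as a block. The fits were tested on simulated data. Nothing in the labels separates cultures or batches beyond the mouse. Alternatives were RLE scaling, DESeq2 1.42.0, limma-voom (limma 3.58.1), no filter on low counts, an offset for gene length, equal cluster shares and leaving out each mouse. Levels were also computed as means over cells, without mitochondrial and ribosomal protein genes, and as UMIs per 100 cells. Seed matches (7 bases opposite miRNA bases 2 to 8, with the next A where present) were sought in the longest annotated 3' UTR per gene (GENCODE vM21, GRCm38), and promoters came from RefSeq. GENCODE gave a span for 14880 of the 15093 symbols.

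Named genes were all members, up to 3 pathway genes per direction and cell type by unadjusted p, of which the text gives a part, and the 3 genes most like each member by Pearson r of log2(CPM + 1). The members and lists were chosen with earlier results of these data known. Intervals from counts cover counting error only.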

Additional observations from a re-analysis of the deposited data

Results flagged for a closer look

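Camkk2 in B cells took opposite directions in neighbouring clusters. In cluster 1 both treated mice lay above both untreated mice, with 31.8 and 30.0 CPM in treated mice and 22.2 and 14.7 CPM in untreated mice (log2 fold change 0.82, unadjusted p = 0.0472 in edgeR, not past the adjusted threshold). In cluster 0 both lay below, with 30.4 and 34.4 CPM in treated mice and 43.1 and 43.8 CPM in untreated mice (-0.44, unadjusted p = 0.114 in edgeR). The difference between the clusters was not tested, and in cluster 1 the values rest on 29, 31, 8 and 8 UMIs.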

How the results depend on the processing

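No member passed the adjusted threshold under the alternatives that carry a test (RLE scaling, DESeq2, limma-voom, no filter, the gene length offset and leaving out a mouse), and equal cluster shares gave values without a test. Of the 33 member effects per setting the direction held for 32 under RLE scaling, DESeq2, limma-voom and no filter each, 25 under the gene length offset and 20 of 24 with equal cluster shares. Directions turned as follows. With the gene length offset, Camk2g, Ppp3ca and Ppp3cc stood at 0.046, 0.022 and 0.024 in B cells, Camk2d, Camk4, Ppp3ca and Ppp3r1 at 0.069, 0.023, 0.064 and 0.001 in CD4+ T cells, and Camk2d at 0.036 in CD8+ T cells. With equal cluster shares, Camkk2 and Ppp3cc stood at 0.025 and 0.069 in B cells, and Camk1d and Camk2g at -0.071 and -0.007 in CD4+ T cells. The values with equal shares lack TMM scaling. Mean CPM of Camk1d in all CD4+ T cells, also without TMM, was 1502 in treated mice against 1550 in untreated mice. Camk2g in B cells stood at 0.004 without a filter, Camk1d in CD4+ T cells at -0.001 with RLE and DESeq2, and Ppp3r1 in CD4+ T cells at 0.037 with limma-voom. The cause was not tested.

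With a mouse left out, ranges crossed 0 for 14 effects. In B cells they were -0.063 to 0.044 for Camk2g and -0.122 to 0.041 for Ppp3cc. In CD4+ T cells they were -0.069 to 0.091 for Camk1d, -0.166 to 0.084 for Camk2d, -0.038 to 0.207 for Camk2g, -0.132 to 0.019 for Ppp3cb and -0.369 to 0.459 for Ppp3r1. In CD8+ T cells they were -0.044 to 0.128 for Camk1d, -0.558 to 0.503 for Camkk2, -0.174 to 0.25 for Ppp3cb and -0.158 to 0.046 for Ppp3r1. In plasmablasts they were -0.3 to 0.01 for Camk2d, -0.605 to 0.409 for Camkk2 and -0.35 to 0.103 for Ppp3r1. Ranges on 1 side of 0 were wide too, such as -0.439 to -0.041 for Ppp3ca and -0.414 to -0.014 for Ppp3cc in CD8+ T cells and -0.437 to -0.06 for Ppp3cc in plasmablasts.

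Counts of all genes called moved more. Without a filter edgeR called 21 genes in B cells, 13 in plasmablasts, 11 in CD4+ and 11 in CD8+ T cells, against 0, 1, 0 and 2. DESeq2 called 0 in CD8+ T cells and 0 in plasmablasts, limma-voom 1 in CD8+ T cells, and the length offset 2 in plasmablasts. With a mouse left out, where the lone mouse of a group is assumed to vary like the others, 10 to 16 genes were called in B cells, 3 to 13 in plasmablasts and 6 to 16 in CD8+ T cells. For the differences between cell types, 1 to 4 genes (B cells minus CD4+ T cells) and 1 to 3 genes (CD8+ minus CD4+ T cells) were called with a mouse left out, and 0 in each without the mouse block. No paired analysis was possible because the labels number no pairs of treated and untreated mice.

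Of the levels, 45 of 45 moved by less than the spread between mice as means over cells. In UMIs per 100 cells, ratios to B cells turned, to log2 values of 0.132 for Ppp3cc in NK cells, 0.213 for Ppp3r1 in CD8+ T cells and 0.069 for Ppp3r1 in NK cells, and the ratios of Ppp3cb, near 0 in CPM, stood at 0.688 in CD8+ T cells and 0.9 in NK cells. Leaving mitochondrial and ribosomal protein genes out of the total raises levels by construction. Of the ratios to B cells, 16 of 34 moved by at least their spread between mice. Ratios small in CPM changed sign, to -0.073 for Camk1d in plasmablasts, 0.268 for Ppp3cb in CD8+ T cells and 0.285 for Ppp3cb in NK cells. On this scale Camk1d ranged over mice from 1845 to 2121 CPM in B cells. It ranged from 2351 to 2616 CPM in CD4+ T cells, 2382 to 2689 CPM in CD8+ T cells and 2697 to 3775 CPM in NK cells, without overlap with B cells. With a mouse left out, the mean Ppp3ca share ran from 76.04 to 76.5% in B cells and from 76.28 to 77.63% in plasmablasts. It ran from 47.66 to 48.39% in CD4+ T cells and from 46.37 to 49.75% in CD8+ T cells.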
